A study of Mus musculus with 19 samples.

Results

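Liver RNA levels are described here for 9 mouse genes, the integrated stress response genes Atf4, Atf5, Atf3, Ddit3, Trib3, Asns, Chac1 and Sesn2 and the stress-induced hormone gene Gdf15, out of 49315 genes in the deposited tables. They were taken by symbol, having been chosen by their measured counts in these same libraries, so their differences between groups are given as a description and not as independent evidence. Nothing in the choice set a threshold on a value. All 9 genes passed the filter on low counts, which kept 15016 genes for testing.

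The libraries came from 19 female mice, 1 library per mouse, in 4 groups. On the high cholesterol diet (0.2%, wt/wt) there were 5 Gramd1c-/- and 5 Gramd1c+/+ mice, and on the low cholesterol diet (0.02%, wt/wt) there were 4 Gramd1c-/- and 5 Gramd1c+/+ mice. Gramd1c encodes Aster-C, a protein that moves cholesterol between membranes. The diets were begun at 8 weeks of age and fed for 4 weeks. In Gramd1c-/- mice a knockout-first allele (tm1a) is present in every tissue, and both genotypes were littermates of heterozygous crosses on a C57BL/6N-Atm1Brd background. Most mice, but not all, were fasted before the liver was taken, and the sources used here do not name the unfasted ones.

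The sample labels give the tissue as gonadal fat and the cell type as liver. The summed level of 5 hepatocyte markers was 81201 to 130146 TPM (counts scaled by gene length and library total), while 4 adipocyte markers summed to 1.60 to 23.9 TPM, so the libraries had the profile of liver. Gramd1c itself was 1.07 to 3.61 TPM in Gramd1c-/- mice, against 9.56 to 15.99 TPM in Gramd1c+/+ mice, and no library went against its label. Total counts per mouse were 27149972 to 34669648. As a check of the diets, Sqle, an enzyme of sterol synthesis, was lower on high cholesterol (edgeR log2 fold change -4.53, SE 0.158, adjusted p = 9.37e-14). Library 2 of the Gramd1c+/+ low cholesterol group held 569 TPM of 5 adrenal markers, where each of the other 18 libraries held at most 3.69 TPM, and library 5 of the Gramd1c-/- high cholesterol group stood apart on the first principal component. In the Gramd1c-/- high cholesterol group, library 3 held 141 TPM of cholangiocyte markers and library 4 held 385 TPM of Kupffer cell markers, the highest of the 19 in each case. In bulk tissue, fewer cells of a type and less RNA per cell cannot be told apart.

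The integrated stress response begins when a kinase phosphorylates the translation factor eIF2 alpha, which slows protein synthesis overall while raising translation of a few mRNAs, Atf4 among them. ATF4 then raises transcription of genes for amino acid supply and for further regulators, including Ddit3 (CHOP), Trib3, Asns, Chac1 and Sesn2. GDF15 is a secreted hormone that acts on the hindbrain through the receptor GFRAL to reduce food intake, and its gene can be raised by ATF4 and CHOP but also by p53 and other inputs. ATF4 is controlled largely at translation, which mRNA levels do not measure.

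ATF4 with a C/EBP partner binds a composite element whose letters are TGATGNAAN. It was searched on both strands in RefSeq promoter windows (GRCm38.p6, 250 bases before to 50 after each start), and 3.95% of 32851 windows held it. Of the 9 genes, 4 had it in a window, namely Asns, Atf3, Chac1 and Trib3. The windows of Atf4, Atf5, Ddit3 and Sesn2 held no match, as was so for Gdf15. The stretches upstream of the start that hold it are shown for the 3 genes with a match there, beside the stretch directly upstream of Gdf15, whose 2 windows held no match, so that the sequences of target genes and of Gdf15 can be compared. Each is written 5′ to 3′ along the gene's strand, and capitals mark the match, which reads as its reverse complement in Atf3 and Chac1.
Asns (chr6:7693210-7693272, minus strand, directly upstream of the start): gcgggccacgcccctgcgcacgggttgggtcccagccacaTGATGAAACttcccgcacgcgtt
Atf3 (chr1:191183396-191183484, minus strand): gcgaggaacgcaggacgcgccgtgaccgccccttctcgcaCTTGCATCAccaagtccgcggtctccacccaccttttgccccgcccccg
Chac1 (chr2:119351008-119351096, plus strand): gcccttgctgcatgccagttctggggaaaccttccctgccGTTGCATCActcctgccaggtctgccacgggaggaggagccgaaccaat
Gdf15 (chr8:70632457-70632606, minus strand): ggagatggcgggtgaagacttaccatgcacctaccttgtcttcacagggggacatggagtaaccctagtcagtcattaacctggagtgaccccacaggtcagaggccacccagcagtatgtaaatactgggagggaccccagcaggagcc
The match begins 23 bases before the start in Asns, 111 before it in Atf3 and 194 before it in Chac1. In Trib3 the match begins 13 bases after the start. A match is a description of the letters, and no match says nothing about binding.

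Gdf15 (chromosome 8, 70629393 to 70632456, minus strand, GRCm38) was the only one of the 9 genes whose levels separated the diets in either genotype. On high cholesterol its level in Gramd1c-/- mice was 12.4, 37.6, 19.6, 12.9 and 8.62 TPM, and its level in Gramd1c+/+ mice was 15.2, 30.0, 18.7, 11.4 and 19.9 TPM. On low cholesterol it was 6.97, 4.02, 4.56 and 8.44 TPM in Gramd1c-/- mice and 5.74, 10.9, 1.96, 2.87 and 4.03 TPM in Gramd1c+/+ mice. Every high cholesterol mouse was above every low cholesterol mouse of its own genotype, and 9 of the 10 high cholesterol mice were above all 9 low cholesterol mice. The exception was Gramd1c-/- mouse 5 on high cholesterol, below Gramd1c+/+ mouse 2 on low cholesterol, and these are the libraries that stood apart above. The counts behind these values ran from 49 to 989 per mouse.

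**Figure D1:**
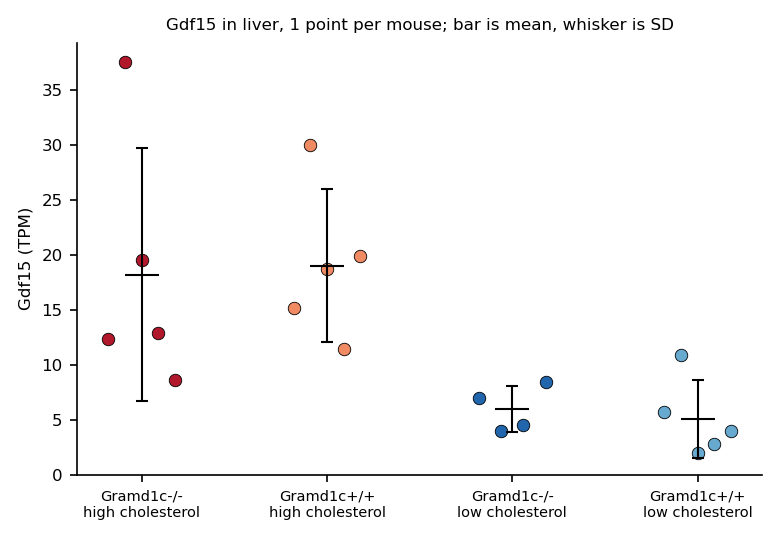
Gdf15 level in TPM (vertical axis) in each of the 19 mice, by genotype and diet (horizontal axis), with 1 point per mouse, a bar at the group mean and a whisker of 1 SD. The high cholesterol groups range from 8.62 to 37.6 TPM and the low cholesterol groups from 1.96 to 10.9 TPM.

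The group means were 18.2 ± 11.5 TPM in Gramd1c-/- mice and 19.05 ± 6.97 TPM in Gramd1c+/+ mice on high cholesterol (SD, n = 5 each). On low cholesterol they were 5.995 ± 2.07 TPM in Gramd1c-/- mice (SD, n = 4) and 5.10 ± 3.53 TPM in Gramd1c+/+ mice (SD, n = 5). In order of mean level the 4 groups therefore run from Gramd1c+/+ high to Gramd1c-/- high, Gramd1c-/- low and Gramd1c+/+ low, and the neighbours within a diet did not differ beyond their spread.

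In edgeR's quasi-likelihood test, a model of counts over all 15016 genes with Benjamini-Hochberg adjustment, the Gdf15 log2 fold change of high over low cholesterol was 1.59 in Gramd1c-/- mice (SE 0.454, 95% interval 0.64 to 2.53) and 2.02 in Gramd1c+/+ mice (SE 0.426, 95% interval 1.14 to 2.91). Averaged over both genotypes it was 1.80 (SE 0.312), which is 3.49-fold with an interval of 2.22 to 5.49. With adjusted p below 0.05 as the call, Gdf15 was not called in Gramd1c-/- mice (adjusted p = 0.257) and was called in Gramd1c+/+ mice (edgeR adjusted p = 0.0350) and in the average (edgeR adjusted p = 0.00284). The call in Gramd1c+/+ mice was lost when any of 8 of the 10 Gramd1c+/+ mice was left out, with adjusted p up to 0.144, and among these 10 it was kept only without mouse 2 on low or mouse 4 on high cholesterol. DESeq2 called Gdf15 in Gramd1c-/- mice as well (adjusted p = 0.0319), so its call in that genotype depends on the tool, and the difference between the genotypes was itself small beside its error (interaction -0.44, SE 0.602, edgeR adjusted p = 0.9999).

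Most summed cell type markers overlapped between diets within each genotype, the hepatocyte sum in Gramd1c-/- and the adrenal sum in Gramd1c+/+ mice being the exceptions. The adrenal sum in Gramd1c+/+ mice was 0.658 to 1.14 TPM on high cholesterol, against 1.84 to 569 TPM on low cholesterol. Without library 2, the low cholesterol mice were at 1.84 to 2.25 TPM, still above the high cholesterol mice. The 5 hepatocyte markers, all detected, summed to 81201 to 100840 TPM in Gramd1c-/- mice on high cholesterol, against 110872 to 126292 TPM in Gramd1c-/- mice on low cholesterol, without overlap. In Gramd1c+/+ mice they summed to 83075 to 114174 TPM on high cholesterol, against 95160 to 130146 TPM on low cholesterol, and overlapped. In Gramd1c-/- mice the mean sum was 96200 TPM on high and 117481 TPM on low cholesterol. The albumin gene Alb had means of 60454 TPM on high and 81124 TPM on low cholesterol in Gramd1c-/- mice. In Gramd1c-/- mice the Alb difference was close in size to that of the sum. In Gramd1c+/+ mice the means on high and low cholesterol were 60348 and 76637 TPM for Alb. For the sum they were 94946 and 114967 TPM. A change in hepatocyte content was not tested. The 4 neutrophil markers, of which Ly6g was at 0 in every library, summed to 2.64 to 7.30 TPM on high against 2.07 to 4.64 TPM on low cholesterol in Gramd1c-/- mice, and to 2.92 to 5.33 TPM on high against 2.34 to 3.36 TPM on low cholesterol in Gramd1c+/+ mice, overlapping in both genotypes. The part of these markers in the Gdf15 difference was not tested.

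Of the 9 genes, the number called was 0 for diet in Gramd1c-/- mice, where 0.326% of all tested genes were called, 1 for diet in Gramd1c+/+ mice, where 0.44% were called, and 1 for diet averaged over genotypes, where 1.3% were called. That 1 gene is Gdf15 in each case, and nothing is read from it since its values were known when it was chosen. Of the 9 genes, 1 did not overlap between diets in Gramd1c-/- mice, against 3.46% of all tested genes, and 1 did not overlap in Gramd1c+/+ mice, against 1.72%. Again this was Gdf15.

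The transcription factors of the response are Atf4, the factor translated when eIF2 alpha is phosphorylated, its relative Atf5, Atf3, an early-response factor of the same family, and Ddit3, which encodes the factor CHOP. Atf4 (chromosome 15, 80255184 to 80257540) was 76.4, 68.6, 80.0, 72.0 and 93.9 TPM in Gramd1c-/- and 72.9, 81.1, 54.1, 70.2 and 71.9 TPM in Gramd1c+/+ mice on high cholesterol. On low cholesterol it was 63.4, 69.4, 72.6 and 86.0 TPM in Gramd1c-/- and 68.4, 96.8, 50.1, 94.4 and 68.6 TPM in Gramd1c+/+ mice. The groups overlapped throughout, and the highest of all 19 values was Gramd1c+/+ mouse 2 on low cholesterol, the library with adrenal markers. The diet log2 fold change of Atf4, averaged over genotypes, was 0.02 (SE 0.109, 95% interval -0.21 to 0.25, edgeR adjusted p = 0.938).

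Ddit3 (chromosome 10, 127290774 to 127296288) was 8.41, 8.25, 6.97, 6.98 and 10.1 TPM in Gramd1c-/- and 4.58, 8.89, 7.57, 5.64 and 7.56 TPM in Gramd1c+/+ mice on high cholesterol. On low cholesterol it was 6.69, 6.91, 7.58 and 7.27 TPM in Gramd1c-/- and 5.72, 6.55, 2.77, 6.40 and 5.03 TPM in Gramd1c+/+ mice. All 4 Gramd1c-/- mice lay above all 5 Gramd1c+/+ mice on low cholesterol, and the diets overlapped in both genotypes. Among the 9 genes, Ddit3 was the 1 gene that did not overlap between genotypes on low cholesterol, against 1.73% of all tested genes, and no gene of the 9 failed to overlap on high cholesterol, against 0.246%. The genotype difference of Ddit3 on low cholesterol was 0.44 on the log2 scale (SE 0.241, edgeR adjusted p = 0.999). The diet difference averaged over genotypes was 0.32 (SE 0.166, 95% interval -0.026 to 0.67, edgeR adjusted p = 0.306), the largest among the 8 genes other than Gdf15. Ddit3 overlaps Mars and Gm4189 on the opposite strand. Reads in the overlap may be shared, because the strand setting of the counting is not given.

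Atf5 and Atf3 lie at opposite ends of the range of levels. Atf5 (chromosome 7, 44812256 to 44816658), which overlaps Nup62 and Il4i1 on the opposite strand, was the most abundant of the 9 genes per length, at a median of 437 TPM over all mice and a range of 269.5 to 703 TPM. Its means were 470 ± 121 TPM in Gramd1c-/- and 377 ± 73.1 TPM in Gramd1c+/+ mice on high cholesterol (SD, n = 5 each), and 531 ± 131 TPM in Gramd1c-/- (n = 4) and 509 ± 119 TPM in Gramd1c+/+ mice (n = 5) on low cholesterol. The ranges of the 4 groups overlapped, and the diet log2 fold change, averaged over genotypes, was -0.28 (SE 0.151, edgeR adjusted p = 0.320), opposite in sign to that of Gdf15. Atf3 (chromosome 1, 191170296 to 191218039) had only 9 to 55 counts per mouse and 0.313 to 1.89 TPM. Its highest value was again Gramd1c+/+ mouse 2 on low cholesterol, at 1.89 TPM, and its diet log2 fold change was 0.20 (SE 0.228, edgeR adjusted p = 0.649). A change in Atf3 or in Asns, which had 14 to 59 counts, is therefore measured less well than one in Atf5.

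**Figure D2:**
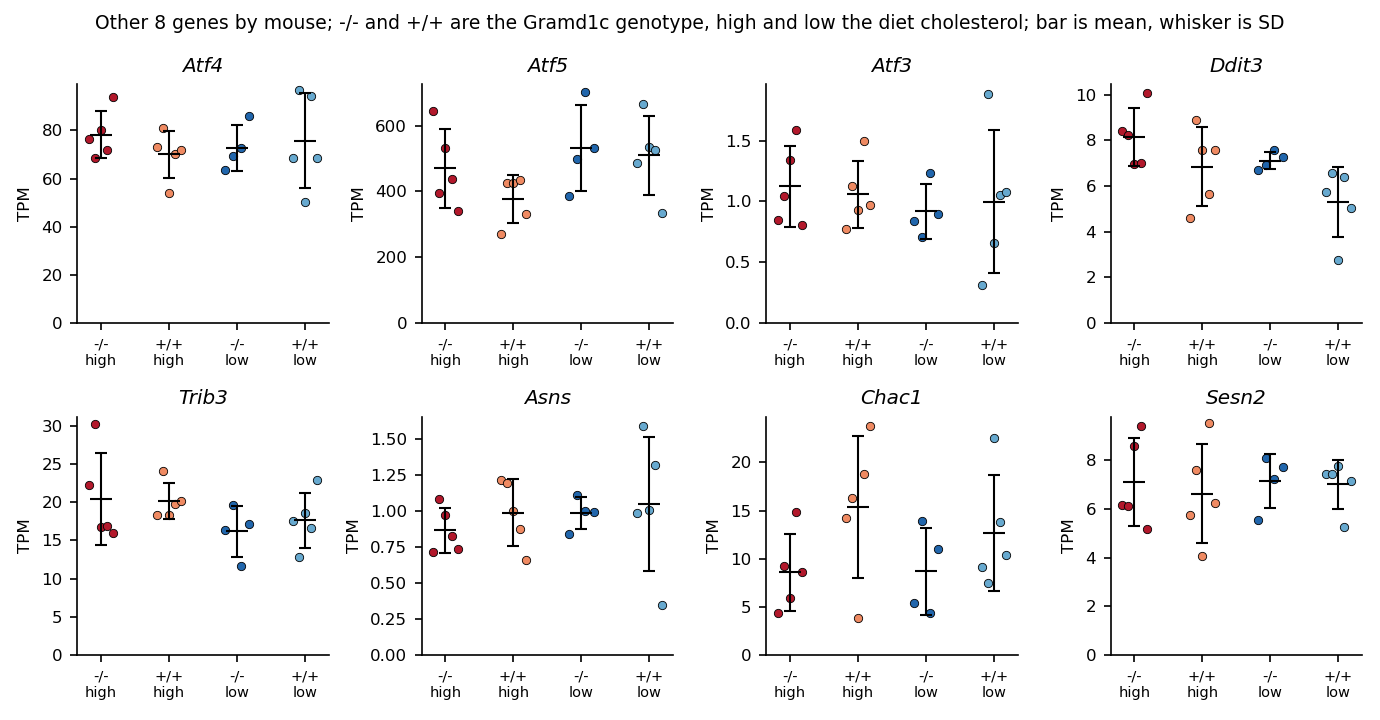
Level in TPM (vertical axes, each from 0) of the other 8 genes in each mouse, by Gramd1c genotype and diet cholesterol (horizontal axes), with 1 point per mouse, a bar at the group mean and a whisker of 1 SD. The diets overlap within each genotype in all 8 panels, and the only pair of groups compared that does not overlap is Ddit3 in Gramd1c-/- against Gramd1c+/+ mice on low cholesterol.

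The targets measured were Trib3, a pseudokinase that binds AKT and ATF4, Asns, the enzyme of asparagine synthesis, Chac1, which degrades glutathione, and Sesn2, a leucine sensor that restrains mTORC1. Trib3 (chromosome 2, 152337422 to 152344032) was 22.3, 30.2, 16.7, 16.9 and 16.01 TPM in Gramd1c-/- and 18.2, 24.0, 18.3, 19.7 and 20.2 TPM in Gramd1c+/+ mice on high cholesterol. On low cholesterol it was 16.3, 19.6, 11.6 and 17.1 TPM in Gramd1c-/- and 17.5, 12.9, 18.5, 16.5 and 22.8 TPM in Gramd1c+/+ mice. The diets overlapped, the highest value being Gramd1c-/- mouse 2 on high cholesterol, which also had the highest Gdf15. The diet log2 fold change of Trib3, averaged over genotypes, was 0.28 (SE 0.158, 95% interval -0.050 to 0.61, edgeR adjusted p = 0.343).

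Chac1 (chromosome 2, 119351229 to 119354381) was 4.35, 9.19, 5.93, 14.8 and 8.65 TPM in Gramd1c-/- and 14.2, 16.3, 3.86, 18.8 and 23.7 TPM in Gramd1c+/+ mice on high cholesterol. On low cholesterol it was 5.42, 13.9, 4.35 and 11.1 TPM in Gramd1c-/- and 9.14, 7.49, 22.6, 13.8 and 10.4 TPM in Gramd1c+/+ mice. The Gramd1c+/+ groups reached higher levels on both diets, but the lowest of all 19 values was a Gramd1c+/+ mouse on high cholesterol, so the genotypes overlapped. On high cholesterol its genotype log2 fold change was -0.87 (SE 0.409, edgeR unadjusted p = 0.0467, adjusted p = 0.99996), and on low cholesterol -0.59 (SE 0.437, edgeR adjusted p = 0.999). The diet log2 fold change was 0.11 (SE 0.297, edgeR adjusted p = 0.862).

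Sesn2 (chromosome 4, 132492032 to 132510501, overlapping Gm12981 on the same strand) was 4.06 to 9.52 TPM over all mice, and Asns (chromosome 6, 7675169 to 7693254) was 0.350 to 1.59 TPM. The diet log2 fold changes were -0.06 for Sesn2 (SE 0.122, edgeR adjusted p = 0.826) and -0.11 for Asns (SE 0.212, edgeR adjusted p = 0.813). The lowest and the highest Asns values both lay among Gramd1c+/+ mice on low cholesterol, mouse 5 and mouse 2.

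Across the 8 genes other than Gdf15, none was called by edgeR in any of the 4 pairwise comparisons, the diet average or the interaction. In the diet average 5 had positive and 3 negative log2 fold changes, with a median of 0.07 and a range of -0.28 to 0.32, against a median of 0.02 over all tested genes, and 0 had an unadjusted p below 0.05, against 18.3% of all tested genes. DESeq2 and limma on log2(TPM + 1) also called 0 of the 8. The upper ends of their 95% intervals were all at or below 0.73, while the interval of Gdf15 began at 1.15. The difference between Gdf15 and the others was not itself tested. These sample sizes leave room for moderate changes, since the interval of Chac1, the least precise, spans -0.51 to 0.73.

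**Figure D3:**
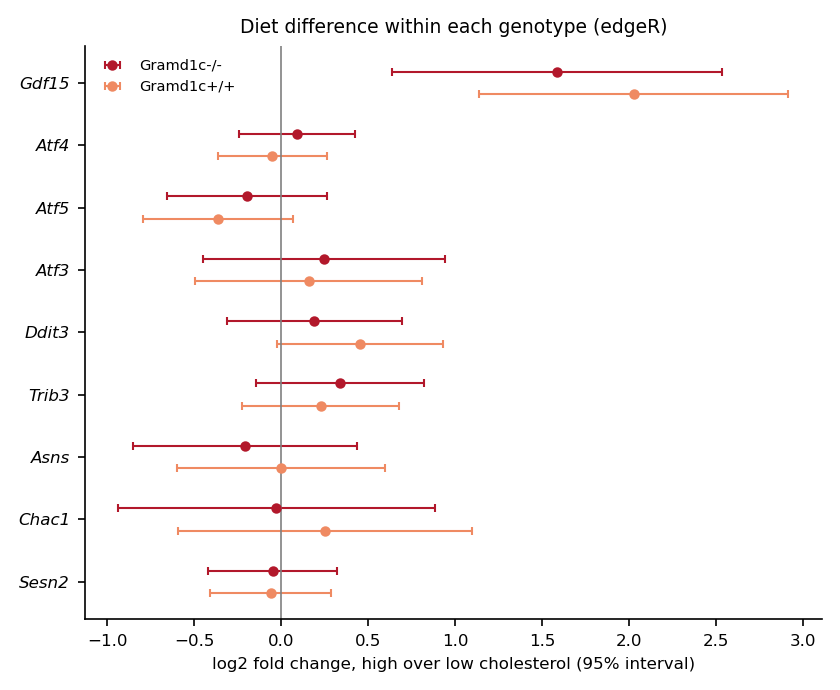
Log2 fold change of high over low cholesterol (horizontal axis) for the 9 genes (vertical axis) in Gramd1c-/- and in Gramd1c+/+ mice, from edgeR, with 95% intervals that are not adjusted for multiple testing. Gdf15 lies at 1.59 and 2.02, and every interval of the other 8 genes crosses 0.

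Between genotypes, 0 of the 9 genes were called on either diet by edgeR, DESeq2 or limma on log2(TPM + 1), where 0.00666% of all tested genes were called on high cholesterol and 0.00666% on low cholesterol, in both cases only Gramd1c itself. At an unadjusted p below 0.05 there was 1 of the 9 on high cholesterol, Chac1, where 2.42% of all tested genes were, and 0 on low cholesterol, where 2.66% were. The Gdf15 log2 fold change of Gramd1c-/- over Gramd1c+/+ mice was -0.17 on high cholesterol (SE 0.404, 95% interval -1.01 to 0.68) and 0.27 on low cholesterol (SE 0.447, 95% interval -0.66 to 1.21). The genotype by diet interaction called 0 of the 9 genes, where 0% of all tested genes were called by edgeR, 250 genes had an unadjusted p below 0.05 and DESeq2 called 0.

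Whether Gdf15 moves with the others from mouse to mouse was asked within groups, so that the diet difference that chose the gene plays no part. Levels were taken as log2(TPM + 1) and centred on the group mean, and the 8 correlations with Gdf15 were computed over all 19 mice, with p from 100000 permutations within groups (two-sided, not adjusted). Ddit3 had the highest, Pearson r = 0.41 (permutation p = 0.144) and Spearman rho = 0.31 (permutation p = 0.234). Asns followed at r = 0.35 (permutation p = 0.255) and rho = 0.29 (permutation p = 0.278). Atf3 had r = 0.25 (permutation p = 0.426, rho = 0.22, p = 0.431), Atf4 0.22 (permutation p = 0.462, rho = 0.086, p = 0.757) and Trib3 0.21 (permutation p = 0.458, rho = 0.16, p = 0.547). Atf5 had r = 0.10 (permutation p = 0.717, rho = -0.018, p = 0.951), Sesn2 0.012 (permutation p = 0.965, rho = 0.016, p = 0.955) and Chac1 -0.24 (permutation p = 0.316, rho = -0.30, p = 0.248). None of the 8 passed an unadjusted p of 0.05. These values pool the diets, and r differed between the 10 high and 9 low cholesterol mice, which was not tested. On high and low cholesterol in turn, r was 0.75 and -0.37 for Trib3, -0.26 and 0.57 for Atf4, and -0.010 and -0.57 for Chac1. For Ddit3 it was 0.22 and 0.60, for Asns 0.55 and 0.25, and for Atf3 0.052 and 0.40. For Atf5 it was 0.067 and 0.13, and for Sesn2 -0.017 and 0.071.

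Gramd1c-/- mouse 2 on high cholesterol and Gramd1c+/+ mouse 2 on low cholesterol lay farthest from the median of Gdf15 once its level was centred on group means. Without them r was 0.37 for Ddit3 and 0.18 for Atf4, but -0.025 for Asns and -0.070 for Atf3, so the r of Asns and of Atf3 rested on these mice. The library of the Gramd1c+/+ mouse is the one with adrenal markers, whose part in the relation was not tested. Without that library and the other that stood apart, r was 0.51 for Ddit3 (permutation p = 0.0465, not adjusted) and -0.25 for Atf3. Over the 8 genes the median r with Gdf15 was 0.22, against 0.080 over the 28 pairs of the 8 genes among themselves and 0.050 over all tested genes, given as a description. The strongest pair among the 8 was Atf4 with Ddit3 at 0.61, and Chac1 with Sesn2 was 0.52.

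**Figure D4:**
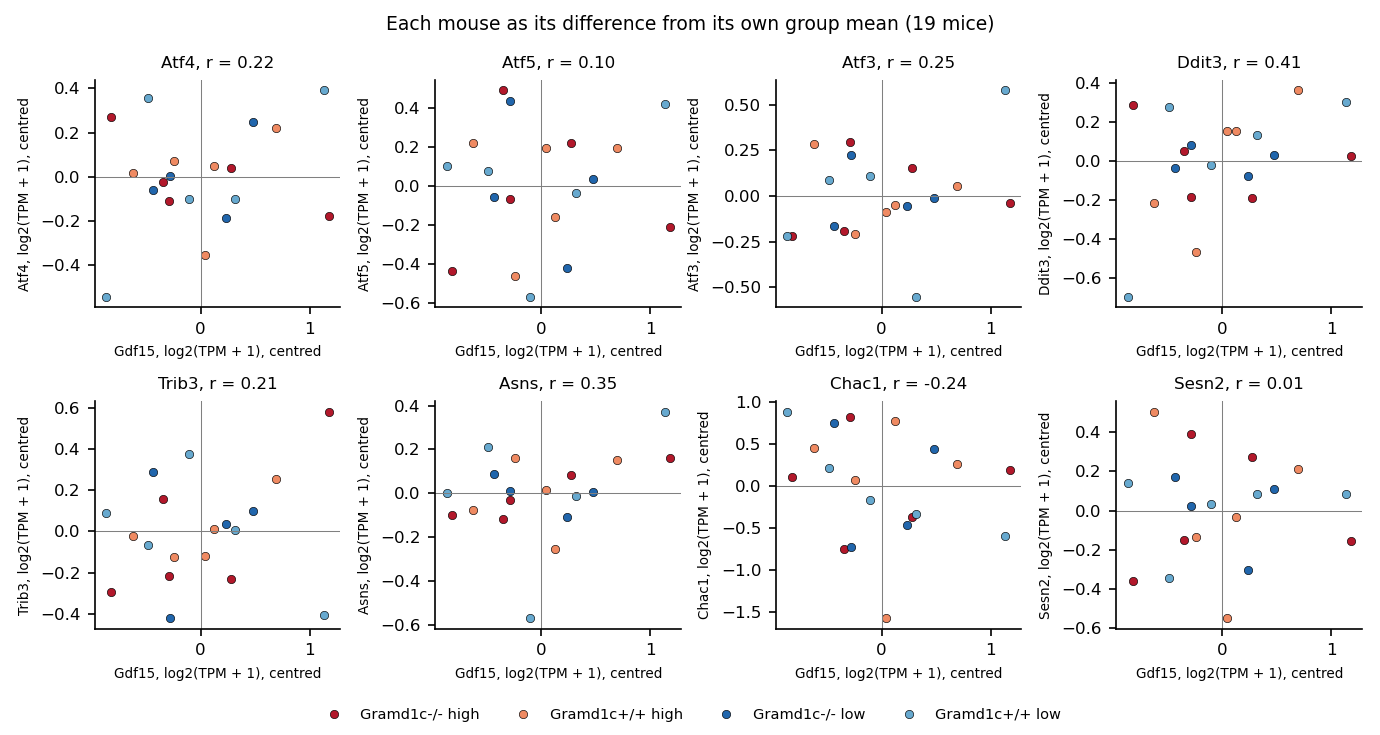
Level of each of the other 8 genes (vertical axes) against Gdf15 (horizontal axes), both as log2(TPM + 1) minus the mean of the mouse's own group, with 1 point per mouse coloured by group. Pearson r runs from -0.24 for Chac1 to 0.41 for Ddit3 over 19 mice.

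The same question was put to every tested gene in edgeR, as the slope on the log2 level of Gdf15 with 1 term per group. Of the 8 genes 0 were called, where 0% of 15015 genes were called and 328 had an unadjusted p below 0.05; of the 8, 0 did. Limma on log2 CPM, another model of the same slope, also called 0. Per doubling of Gdf15 the slope was 0.20 log2 units for Ddit3 (SE 0.126), 0.19 for Asns (SE 0.157), 0.14 for Trib3 (SE 0.121), 0.13 for Atf3 (SE 0.176) and -0.34 for Chac1 (SE 0.215), all with an edgeR adjusted p of 0.9996. The genes whose within-group pattern was nearest to that of Gdf15 over the 19 mice were Gm44321 (r = 0.81), Gm26669 (r = 0.79), Gm45495 (r = 0.77), Gm29093 (r = 0.75) and Tmem119 (r = 0.74). They are the extremes of 15015 genes, and their levels were low, between 0 and 2.99 TPM over all mice. The 5 with the lowest r were Gm8797, Cd7, P2rx7, Zfp281 and Ly96, at -0.63 to -0.62. None of these 10 was called, and in rank among 15015 genes Ddit3 stood at 622 and Chac1 at 13811.

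The rest of the pathway was looked at in a list of 52 genes, all of which were tested. Averaged over genotypes, high cholesterol called 0 of them higher and 1 lower in edgeR, where 1.3% of all tested genes were called in either direction, so 1 of 52 is near the background. Log2 fold changes were positive for 20 and negative for 32, against 7953 positive of 15016 tested genes, and the median was -0.08 against 0.02 over all tested genes. With DESeq2 the count was 4 and with limma on log2(TPM + 1) it was 0, so it depends on the tool. The 1 gene was Yars, the tyrosyl-tRNA synthetase, at 9.18 ± 1.503 TPM in Gramd1c-/- and 8.23 ± 1.53 TPM in Gramd1c+/+ mice on high cholesterol (SD, n = 5 each), against 12.0 ± 1.09 TPM in Gramd1c-/- (n = 4) and 11.2 ± 1.499 TPM in Gramd1c+/+ mice (n = 5) on low cholesterol. Its log2 fold change was -0.41 (SE 0.0787, edgeR adjusted p = 0.00730), opposite in sign to that of Gdf15. In the aminoacyl-tRNA synthetases, which charge tRNAs with amino acids and many of which ATF4 raises, all 12 log2 fold changes were negative, with a median of -0.28. Among them Gars (-0.25, edgeR adjusted p = 0.0897), Mars (-0.33, edgeR adjusted p = 0.0921) and Iars (-0.37, edgeR adjusted p = 0.106) missed the threshold.

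The kinases of eIF2 alpha had 4 negative log2 fold changes of 4, the largest being Eif2ak3 (PERK, the kinase that senses endoplasmic reticulum stress) at -0.35 (SE 0.137, edgeR adjusted p = 0.197). The genes of serine, one-carbon and proline synthesis had 10 positive of 11, with a median of 0.08 and edgeR adjusted p from 0.400 upwards. Of the 7 amino acid transporters 2 were positive, and Slc6a9, a glycine transporter, was at -0.46 (edgeR adjusted p = 0.216). Of the 10 other targets and partners, Vldlr, the VLDL receptor, was at 0.82 (SE 0.250, edgeR adjusted p = 0.106), and Fgf21, another hormone gene that ATF4 raises, was at -0.64 (SE 0.484, edgeR adjusted p = 0.482). None of the 52 was called by edgeR for diet within a genotype or between genotypes. At an unadjusted p below 0.05 there were 10 of the 52 for diet in Gramd1c-/- mice, against 11.4% of all tested genes, and 7 in Gramd1c+/+ mice, against 7.93%. Between genotypes there were 0 on high cholesterol, against 2.42%, and 2 on low cholesterol, against 2.66%.

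**Figure D5:**
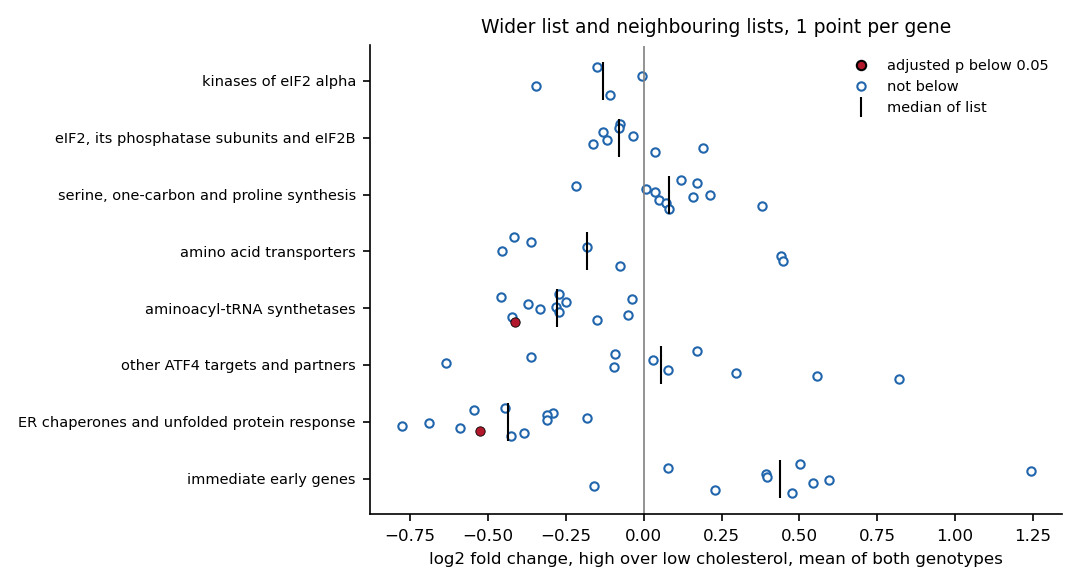
Log2 fold change of high over low cholesterol, averaged over genotypes (horizontal axis), with 1 point per gene for the 6 parts of the 52-gene list and for 2 neighbouring lists (vertical axis); filled points have an edgeR adjusted p below 0.05 and the black mark is the list median. The synthetase and chaperone lists lie to the left of 0, with medians of -0.28 and -0.44, and the immediate early genes mostly to the right, with a median of 0.44.

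Other pathways that can raise Gdf15 or run beside the response were listed too, and their counts for the diet average stand beside the same 1.3% of all tested genes called and the same 7953 of 15016 with a positive log2 fold change. All 12 genes of the endoplasmic reticulum chaperone list had negative log2 fold changes on high cholesterol, with a median of -0.44; Pdia4, a disulfide isomerase, was called lower (-0.53, SE 0.118, edgeR adjusted p = 0.0265) and Hspa5 (BiP) was at -0.69 (SE 0.175, edgeR adjusted p = 0.0549). Of 12 p53 targets 8 were positive and 4 negative, and the 1 called was Sesn1, a sestrin like Sesn2, which was lower (-0.43, SE 0.0928, edgeR adjusted p = 0.0222), while Btg2 was at 0.54 (edgeR adjusted p = 0.203). None of 7 mitochondrial stress genes and none of 7 NRF2 targets was called, with unadjusted p below 0.05 for 0 and 1 of them. Among 10 tested immediate early genes, which respond within minutes to many signals, 9 were positive and 0 were called by edgeR, with 6 at an unadjusted p below 0.05, against 18.3% of all tested genes; Fos was at 1.24 (SE 0.549, edgeR adjusted p = 0.240). The part of handling or sampling in these values was not tested. Gfral, the Gdf15 receptor, had 0 counts in every library.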

How the data were processed

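RNA from 19 mouse livers was sequenced, 1 library per mouse. Gene-level read counts, whole and not normalized, were deposited by the authors with the length of each Ensembl gene. The submitters' processing notes name STAR 2.5.2b and GRCm38. Which tool counted reads, how it treated strand and which annotation it used is not given in these sources. TPM was computed from these counts and lengths. Tests on these used edgeR 4.0.16 under R 4.3.3 (TMM, filterByExpr with a minimum count of 10, 1 coefficient per group, quasi-likelihood F test, Benjamini-Hochberg adjusted p below 0.05), and the code was tested on simulated data. Correlations used Python 3.11.15 with scipy 1.17.1. Symbols were matched for 48970 of 49315 genes. Alternatives used DESeq2 1.42.0, limma 3.58.1, RLE, other filters, fewer groups, a replicate block, a term for 2 runs of numbers and left-out libraries. The 2 runs were made here by splitting, by size, the number that heads each mouse's column of counts. That number was taken as an animal number, which the sample titles do not state.

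The members, lists and tests were chosen with earlier results of these data known. Named genes were the 9 members, up to 4 genes per list with the smallest diet p, and the 5 highest and 5 lowest correlations with Gdf15. Fos was chosen after its values were seen. Mars is listed elsewhere as Mars1. Separate mice are the replicates, and nothing more is stated of them.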

Additional observations from a re-analysis of the deposited data

Results flagged for a closer look

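Sesn2 was 5.27 TPM in Gramd1c+/+ mouse 4 on low cholesterol, against 7.15 to 7.77 TPM in the other mice of its group, and was singled out because the gap to its nearest neighbour took most of the group's range. Of 36 sets of values (9 genes in 4 groups), 1 was singled out this way, where chance alone gives about 1 in 20.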

How the results depend on the processing

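The Gdf15 diet difference kept its sign under every alternative run. Averaged over genotypes its call held in all of them, with log2 fold changes of 1.58 to 2.08 under other tools, models and filters (adjusted p up to 0.00384) and of 1.55 to 2.0004 without 1 mouse (adjusted p up to 0.0129). The number of the 9 genes called for diet in Gramd1c-/- mice was 1 with DESeq2, where edgeR and limma called 0, and in Gramd1c+/+ mice it was 0 to 1 without 1 mouse. Without Gramd1c-/- mouse 2 on high cholesterol the Gdf15 log2 fold change in Gramd1c-/- mice was 1.10. Over all 62 log2 fold changes and slopes of single members, 1645 of 1750 alternatives kept direction and side of the threshold and 96 changed sign, in 32 values that were at most 0.28 in size as reported; 0 of the 96 had an adjusted p below 0.05. The causes were not tested. Counts of 9 to 59 per mouse limit Atf3 and Asns. Single genes of the other lists were not run under the alternatives one by one.

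For diet averaged over genotypes, the count in the 52-gene list was 4 with DESeq2 (Gars, Mars, Vldlr and Yars), 0 with limma on log2(TPM + 1), 0 on log2(TPM + 0.1), 2 without the 2 libraries that stood apart (Vldlr and Yars) and 1 to 3 without 1 mouse, being 3 without Gramd1c+/+ mouse 5 on low cholesterol (Cars, Vldlr and Yars). In Gramd1c+/+ mice it was 1 with DESeq2 and 0 to 1 without 1 mouse, and on the Gdf15 slope with no group terms it was 1, Yars in each case. Over all genes DESeq2 called 598 against 195 for the diet average, 94 against 49 in Gramd1c-/- and 111 against 66 in Gramd1c+/+ mice, and the slope with no group terms called 64 against 0. The diet average called 119 without Gramd1c-/- mouse 2 on low, 123 without Gramd1c-/- mouse 3 on low, 129 without Gramd1c+/+ mouse 2 on high and 308 without Gramd1c+/+ mouse 5 on low cholesterol. In Gramd1c+/+ mice diet called 41 without mouse 2 on high and 42 without mouse 2 on low cholesterol.

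Without the 2 libraries that stood apart, which were known from earlier results, log2 fold changes that changed sign were Atf4 (-0.015) and Trib3 (0.022) between genotypes on high cholesterol, Atf4 (0.0033), Atf3 (0.20), Asns (0.061) and Sesn2 (-0.0078) between genotypes on low cholesterol, Atf4 (-0.019) and Sesn2 (0.019) for diet in Gramd1c-/- mice, Asns (0.13) for diet in Gramd1c+/+ mice, Atf4 (-0.0099) in the diet average, and Atf4 (-0.019) and Atf3 (-0.12) in the interaction. The slopes of Atf5 (-0.069) and Atf3 (-0.14) on Gdf15 did so too. On log2(TPM + 0.1) with limma, Atf3 (0.052) and Asns (0.039) changed sign between genotypes on low cholesterol, Chac1 (0.023) for diet in Gramd1c-/- mice and Asns (0.019) for diet in Gramd1c+/+ mice, and on log2(TPM + 1) Chac1 was at 0.017 for diet in Gramd1c-/- mice. Atf4 was at -0.019 in the diet average with the term for the 2 runs of numbers, and the Atf5 slope was -0.094 with no group terms.

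Without 1 mouse, the genotype difference on high cholesterol ran from -0.65 to 0.11 for Gdf15, -0.015 to 0.20 for Atf4, -0.12 to 0.092 for Atf3, -0.23 to 0.084 for Trib3 and -0.069 to 0.14 for Sesn2. On low cholesterol it ran from 0.083 to 0.67 for Gdf15, -0.15 to 0.052 for Atf4, -0.11 to 0.18 for Atf5, -0.30 to 0.20 for Atf3, -0.29 to 0.061 for Asns and -0.069 to 0.11 for Sesn2. The diet difference in Gramd1c-/- mice ran from -0.020 to 0.15 for Atf4, -0.27 to 0.30 for Chac1 and -0.15 to 0.018 for Sesn2. In Gramd1c+/+ mice it ran from -0.16 to 0.046 for Atf4, -0.060 to 0.44 for Atf3, -0.22 to 0.14 for Asns and -0.17 to 0.024 for Sesn2. In the diet average Atf4 ran from -0.035 to 0.069 and Chac1 from -0.011 to 0.29. The interaction ran from -0.91 to -0.15 for Gdf15, -0.021 to 0.34 for Atf5, -0.20 to 0.30 for Atf3, -0.074 to 0.24 for Trib3, -0.35 to 0.012 for Asns, -0.63 to 0.047 for Chac1 and -0.088 to 0.13 for Sesn2. Slopes on Gdf15 ran from -0.0071 to 0.13 for Atf4, -0.016 to 0.082 for Atf5, -0.080 to 0.21 for Atf3, -0.033 to 0.28 for Trib3 and -0.12 to 0.00067 for Sesn2.

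The correlation of Atf5 with Gdf15 was -0.018 as Spearman rho, -0.30 uncentred and -0.32 without the 2 libraries, that of Atf3 was -0.25 without them, and that of Sesn2 was -0.094 uncentred and -0.22 without them. Ddit3 had r = 0.51 without the 2 libraries, past an unadjusted permutation p of 0.05. Uncentred it had r = 0.54, which is no test, since the diet difference that chose Gdf15 enters it. Trib3 was at -0.10 without the 2 mice farthest from the median of the uncentred Gdf15 level.

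Replicate numbers did not pair the mice: residuals of 27 pairs with the same number correlated at -0.069 on average, against 0.017 for 108 pairs with different numbers. With the replicate number as a block, Gdf15 was at 1.39 for diet in Gramd1c-/- mice (edgeR adjusted p = 0.466), 2.09 in Gramd1c+/+ mice (edgeR adjusted p = 0.0127) and 1.74 in the average (edgeR adjusted p = 0.00271). The block changed no count of calls among the 9 or the 52 genes, while over all genes the diet average called 122 against 195. It changed the sign of Atf5 (-0.028) and Sesn2 (-0.034) between genotypes on low cholesterol, of Asns for diet in Gramd1c+/+ mice (0.036), and of the slopes of Atf5 (-0.020) and Asns (-0.035).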
